A study of Canis lupus familiaris with 42 samples.

Results

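Transcripts of 36 genes of DNA double-strand break repair, interstrand crosslink repair (the Fanconi pathway) and the damage checkpoint were followed in canine sarcomas sampled before and after a first hyperthermia treatment. The genes were taken from a list by function, and each was read from the Affymetrix canine probe set annotated with its symbol alone that had the highest mean over all 42 arrays. Of the 36 genes, 33 had such a probe set, among 15115 genes measured in this way. PALB2, XRCC3 and BLM are not analysed here. The tumours were spontaneous sarcomas of dogs, with no strain, age or genotype given in the labels, and both groups were bulk tumour tissue. The group called before had received no treatment per the labels, and the group called after was taken once the first hyperthermia had been given alongside radiotherapy. Each group holds 21 arrays, 1 for each of 21 tumours, of the 22 tumours that the series design describes. The labels used here give neither the interval after treatment nor the radiation received by then, and no tumour was sampled again without treatment, so heat, radiation, time and a second sampling cannot be told apart.

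A double-strand break is a cut through both strands of DNA. It is bound by a sensor complex and signalled by the kinases ATM and ATR, which act on the checkpoint kinases CHEK1 and CHEK2 to hold the cell cycle. It is then repaired either by end joining, which ligates the ends directly in any phase of the cycle, or by homologous recombination, which copies the sister chromatid and so works after replication. The Fanconi proteins unhook DNA crosslinks at stalled replication forks and pass the resulting breaks to recombination, and many genes of both of these pathways are known to be transcribed mainly in dividing cells.

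The deposited values were log2 levels normalised by RMA, and levels are compared here only within a gene, since probe sets differ in how well they bind. All 21 tumours had the array of the same tumour as their closest match in the other group after the group means were removed, with correlations from 0.438 to 0.900. The poly-A spike-in controls divided the tumours into 9 with high and 12 with low values, here called the spiked and unspiked batches. No label names these batches. CDKN1A, a p53 target that arrests the cell cycle, rose by 1.85 ± 0.18 (SE, log2) and was higher in 21 of 21 tumours, and MDM2, another p53 target, rose by 1.21 ± 0.16 and was higher in 19. Against this, the mean of 23 measured mitosis genes, none of them among the repair genes, changed by -0.73 ± 0.68 (SD over tumours) and was lower in 18 of 21 tumours, and TOP2A, the topoisomerase of dividing cells, fell by 1.67 ± 0.24. The 10 stroma markers, among them the collagens and VIM that sarcoma cells make, were high before treatment (list means from 11.4 to 12.8). Of these 10, 1 was called lower and 0 higher, SPARC at -0.28 ± 0.08 (limma adjusted p = 0.0476), a gene named after its values were seen, and 3 passed downwards and 0 upwards at an unadjusted p of 0.05. Tumour 15 stood apart, with a keratinocyte marker mean of 8.20 before and 8.14 after against a median of 3.73 over tumours before treatment, and a neutrophil marker mean of 9.50 and 8.83 against 5.15. Among immune markers 4 of 9 T cell genes were called lower, 3 of 5 neutrophil genes higher, and 2 of 10 macrophage genes higher and 1 lower, while 0 of 6 B cell, 0 of 8 endothelial, 0 of 6 keratinocyte and 0 of 7 skeletal muscle genes were called. The part of these cell types in the changes below was not tested.

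Before treatment the tumours differed more in some repair genes than in others. FANCC, a subunit of the Fanconi core complex, had the widest spread, with a lowest level of 4.07, a median of 7.05 and a highest of 8.50 (SD 1.26, n = 21). Its levels fell into 6 tumours between 4.07 and 5.59 (tumours 4, 10, 13, 14, 15 and 17) and 15 between 6.54 and 8.50. The end joining scaffold XRCC4 (SD 0.759) and the DNA-dependent kinase PRKDC (SD 0.718) were lowest in tumours 15 and 13. CHEK2 was highest in tumour 4 at 8.79 and tumour 17 at 8.29, against a median of 6.95. The narrowest spreads were those of the helicase BRIP1 (SD 0.151), the annealing protein RAD52 (SD 0.223) and the core complex subunit FANCG (SD 0.266). BRIP1 read low, from 2.79 to 3.38, beside a lowest value of 2.13 in the whole table. The part of this low level in its narrow spread was not tested. The median SD over the 33 genes was 0.404, beside 0.329 over all genes.

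**Figure D1:**
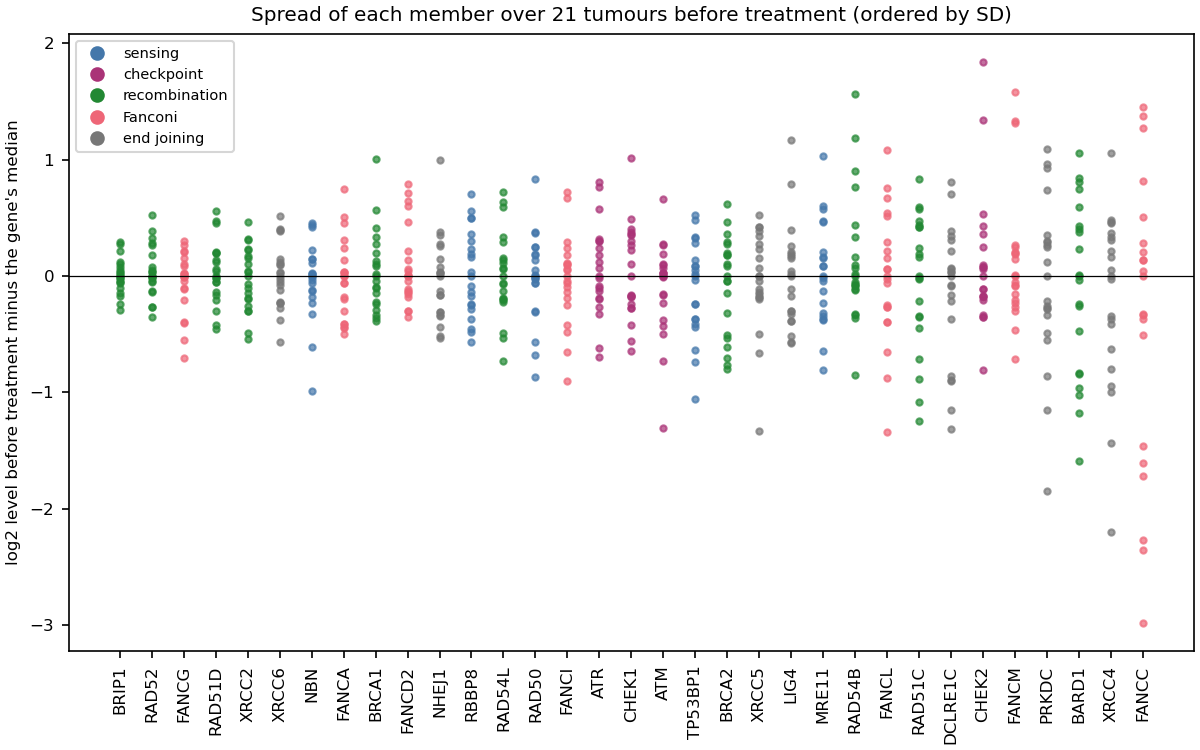
Log2 level of each repair gene in the 21 tumours before treatment, minus that gene's median, with genes ordered by SD and coloured by role. FANCC at the right end splits into a lower set of 6 tumours and an upper set of 15. BRIP1 at the left end, which read low in all tumours, varies least.

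After treatment 7 of the 33 genes were called lower and 1 higher, and the other 25 were not called. The test was limma with the tumour as a block and a threshold of 0.05 on p-values adjusted over 42924 probe sets by the Benjamini-Hochberg method. Over all 15115 genes 3.13% were called lower and 4.02% higher, so the share called lower among the repair genes lay above the background and the share called higher did not. The genes called lower were FANCC, FANCI and FANCM of the Fanconi pathway, RAD54L, BRCA2 and BARD1 of recombination, and the checkpoint kinase CHEK1. The gene called higher was RBBP8, which starts the resection of broken ends. Their mean changes lay between -0.44 and -0.27 and at 0.23 on the log2 scale, which are 1.36- to 1.21-fold decreases and a 1.17-fold increase. Without adjustment 11 repair genes passed 0.05 downwards and 2 upwards, beside 9.63% and 12.1% of all genes. The median change over the 33 genes was -0.06, beside 0.007 over all genes, and the levels before and after overlapped for every one of them. In bulk tissue, fewer cells that express a gene and less RNA per cell cannot be told apart.

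**Figure D2:**
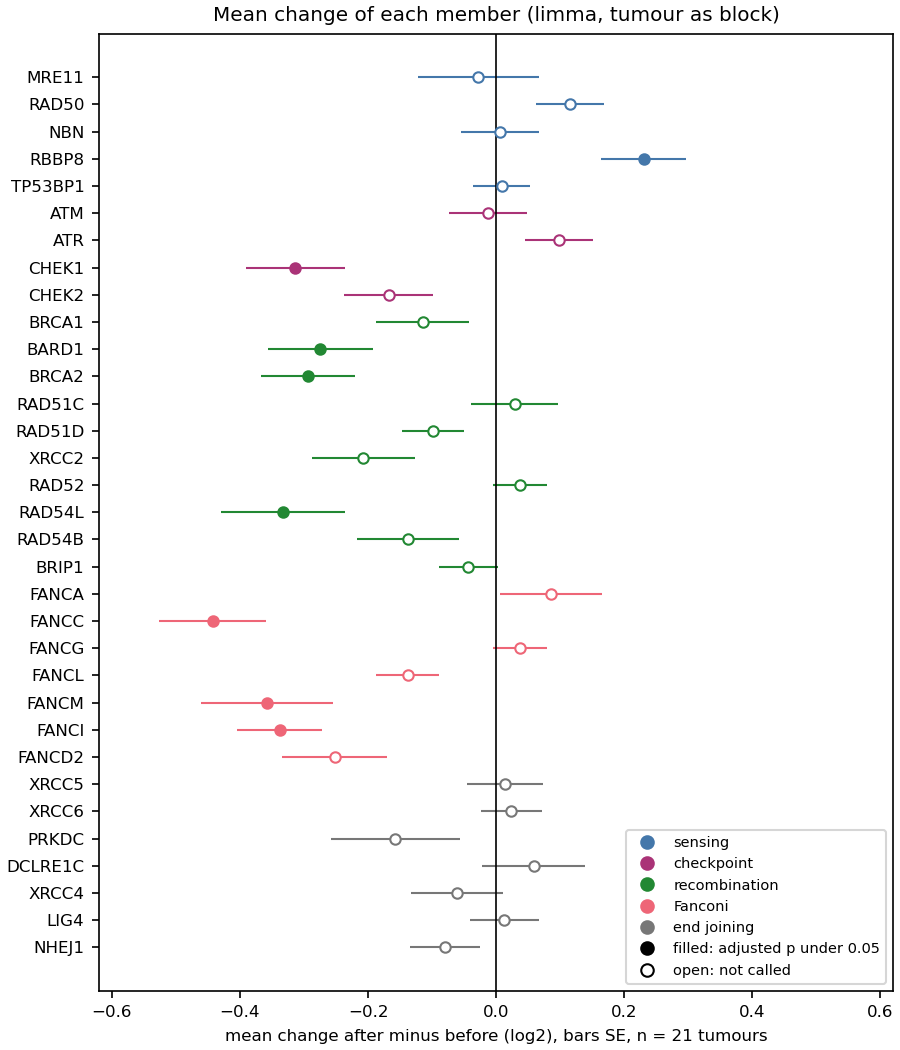
Mean change after minus before treatment (log2, n = 21 tumours) of each of the 33 repair genes with its SE, coloured by role and filled where the adjusted p was under 0.05. The 7 filled points left of 0 are 3 Fanconi genes, 3 recombination genes and CHEK1, the filled point to the right is RBBP8, and all 7 end joining genes are open.

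Of the 7 Fanconi genes measured, 3 were called lower and 0 higher, with a median change of -0.25. FANCC ran from 4.07 over a median of 7.05 to 8.50 before treatment and from 4.14 over 6.61 to 7.70 after it. It fell by 0.44 ± 0.08 (SE, limma adjusted p = 0.00313) and was lower in 18 of 21 tumours. The largest fall was 1.26 in tumour 2 and the largest rise 0.15 in tumour 8, so the fall was spread over nearly all tumours, and the levels before and after overlapped. FANCI, which forms with FANCD2 the pair of proteins that is ubiquitinated at a crosslink, ran from 3.97 over 4.87 to 5.60 before and from 4.03 over 4.49 to 5.02 after. It fell by 0.34 ± 0.07 (limma adjusted p = 0.00401) and was lower in 19 of 21 tumours, with tumour 19 at -0.89 and tumour 7 at 0.50 as the extremes. Both FANCC and FANCI kept their call whichever tumour was left out, with adjusted p values up to 0.00697 and 0.00902.

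FANCM, the translocase that brings the core complex to DNA, behaved differently. Its levels were low, from 3.20 over 3.91 to 5.49 before and from 3.06 over 3.69 to 4.51 after. The mean fall of 0.36 ± 0.10 (limma adjusted p = 0.0384) was larger than the median change of -0.19, although 19 of 21 tumours were lower. Tumours 2, 10 and 17 started at 5.23, 5.49 and 5.25, above the next tumour at 4.18, and changed by -1.72, -1.53 and -1.02. A second FANCM probe set changed by -2.16, -1.62 and -1.08 in the same 3 tumours. Another, which was called lower at -0.14 (limma adjusted p = 0.036), changed there by -0.37, -0.38 and 0.06. It read only 3.10, 3.13 and 2.73 there before treatment, near the lowest value of the whole table, 2.13. From these levels, falls as large as those of the probe set used would end below that lowest value. The call was lost without tumour 2, 10 or 17 and without 7 other tumours (3, 7, 11, 12, 18, 20 and 21), with adjusted p values between 0.0239 and 0.0661 over all 21 such fits and changes from -0.40 to -0.29.

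FANCD2, the partner of FANCI, was not called from the probe set used, with levels from 6.16 over 6.51 to 7.30 before and from 5.78 over 6.26 to 7.77 after. Its change was -0.25 ± 0.08 (limma adjusted p = 0.0695), and 16 of 21 tumours were lower, while tumour 17 was higher by 0.65. Without tumour 15 or tumour 17 it was called, and its adjusted p values over the 21 fits ran from 0.0206 to 0.126. A second FANCD2 probe set was called lower, at -0.36 (limma adjusted p = 0.026). FANCL, the ubiquitin ligase of the core complex, changed by -0.14 ± 0.05 (adjusted p = 0.0977) and passed the threshold only without tumour 8, at 0.0409. The core complex subunits FANCA and FANCG changed by 0.09 ± 0.08 and 0.04 ± 0.04 and were not called.

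Of the 10 recombination genes, 3 were called lower and 0 higher, with a median change of -0.13. RAD54L, a motor protein of homologous recombination, ran from 4.89 over 5.62 to 6.34 before and from 4.34 over 5.31 to 6.17 after. It fell by 0.33 ± 0.10 (limma adjusted p = 0.0412) and was lower in 18 of 21 tumours. Tumour 4 fell by 1.35 while tumour 15 rose by 1.13, the widest pair of extremes among the genes called. BRCA2, a mediator of homologous recombination, ran from 6.69 over 7.50 to 8.11 before and from 5.47 over 7.23 to 7.93 after. It fell by 0.29 ± 0.07 (limma adjusted p = 0.0181) and was lower in 15 of 21 tumours, with -1.22 in tumour 4 and 0.15 in tumour 6 as its extremes. A second BRCA2 probe set was lower in 14 of 21 tumours, at -0.18, and was not called (limma adjusted p = 0.182). BARD1, the partner of BRCA1 in a ubiquitin ligase, ran from 6.41 over 7.999 to 9.06 before and from 5.69 over 7.85 to 8.72 after. It fell by 0.27 ± 0.08 (limma adjusted p = 0.0463) and was lower in 15 of 21 tumours, and a second BARD1 probe set was called lower at -0.25 (limma adjusted p = 0.039).

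On the probe set used, BRCA2 kept its call whichever tumour was left out, with adjusted p values up to 0.0361. The call of RAD54L was lost in 13 of these 21 fits, without tumour 1, 2, 3, 4, 7, 9, 10, 11, 13, 16, 19, 20 or 21, with adjusted p values from 0.00185 to 0.0758 and changes from -0.41 to -0.28. That of BARD1 was lost in 15, and it was kept only without tumour 1, 6, 8, 15, 17 or 21, with adjusted p values from 0.0184 to 0.0866 and changes from -0.31 to -0.24. Both lay near the threshold, and their direction held in every fit.

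BRCA1 itself changed by -0.11 ± 0.07 (limma adjusted p = 0.425) and was not called. XRCC2, another gene of homologous recombination, ran from 3.40 over 3.94 to 4.40 before and from 3.22 over 3.69 to 4.25 after, and its change of -0.21 ± 0.08 was not called (limma adjusted p = 0.136). It was lower in 9 of 9 spiked tumours, with a mean of -0.42, but in 5 of 12 unspiked tumours, with a mean of -0.05. The difference between the batches had an unadjusted p of 0.017 and an adjusted p of 0.651. RAD51D and RAD51C changed by -0.10 ± 0.05 and 0.03 ± 0.07, the motor protein RAD54B by -0.14 ± 0.08, RAD52 by 0.04 ± 0.04 and BRIP1 by -0.04 ± 0.05, and none of these was called. The other RAD52 probe sets changed by -0.05 to 0.15 and were not called either.

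Of the 4 checkpoint kinases, 1 was called lower and 0 higher. CHEK1, which answers to ATR during replication, ran from 4.75 over 5.40 to 6.41 before and from 4.58 over 5.08 to 5.99 after. It fell by 0.31 ± 0.08 (limma adjusted p = 0.0171), was lower in 17 of 21 tumours and kept its call whichever tumour was left out, with adjusted p values up to 0.0329. Tumour 1 had the largest fall, 1.01, and tumour 15 the largest rise, 0.40. CHEK2, which answers to ATM, ran from 6.14 over 6.95 to 8.79 before and from 6.06 over 6.74 to 8.61 after. Its change of -0.17 ± 0.07 was not called (limma adjusted p = 0.172), with 16 of 21 tumours lower. Without tumour 15 it was called, at -0.21 (adjusted p = 0.0482), and a second CHEK2 probe set was called lower on all 21 tumours at -0.27 (limma adjusted p = 0.029). The upstream kinases ATM and ATR changed by -0.01 ± 0.06 and 0.10 ± 0.05 and were not called.

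**Figure D3:**
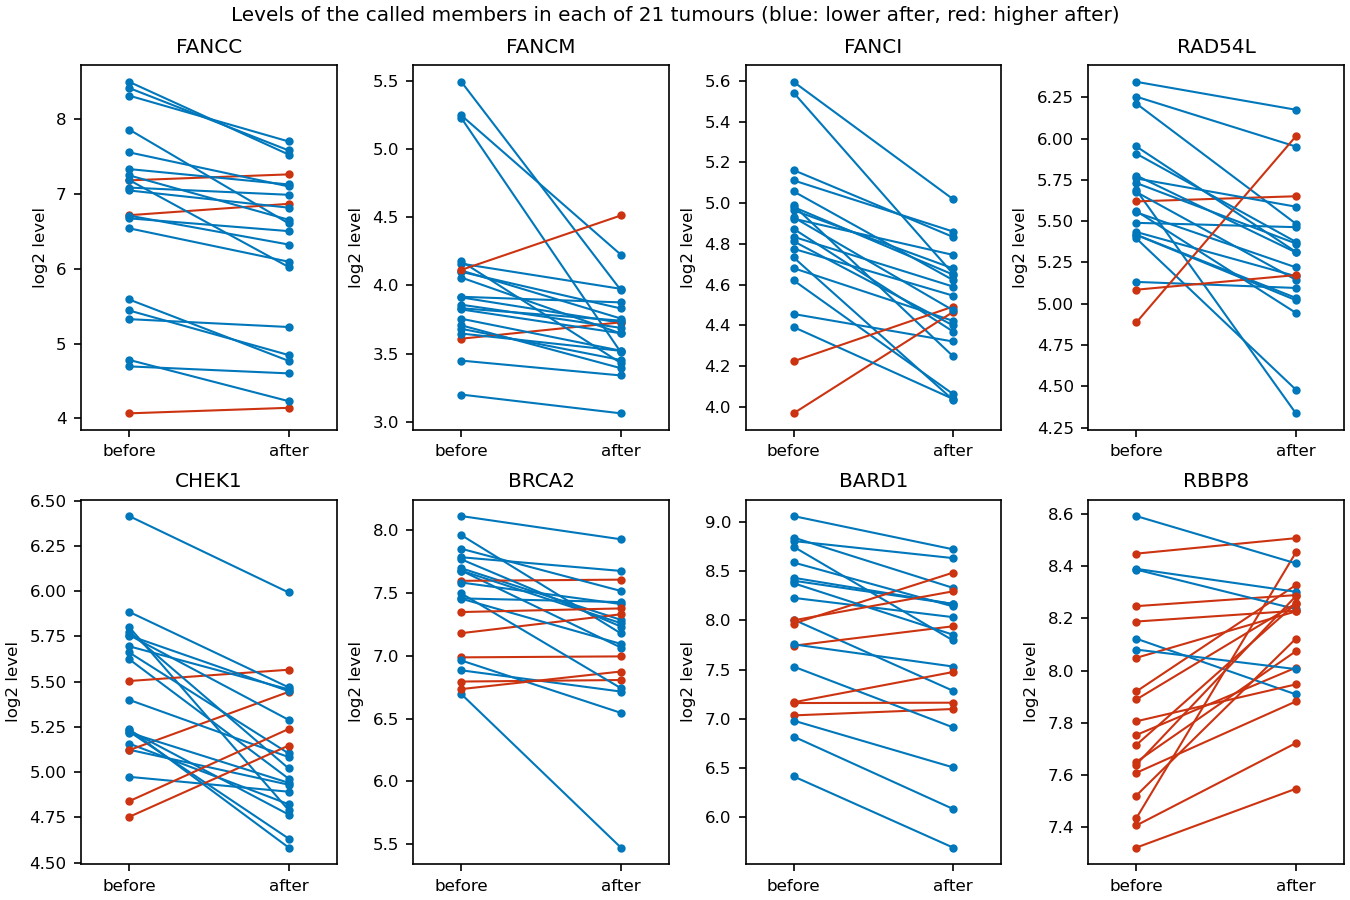
Log2 levels before and after treatment of the 8 called genes, with a line for each of the 21 tumours, blue where lower after and red where higher. Most lines fall in the 7 panels of genes called lower, by steep falls in 3 tumours for FANCM, and 16 of 21 rise for RBBP8, and in every panel the levels before and after overlap.

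Of the 5 genes of break sensing and resection, 1 was called higher and 0 lower. RBBP8 ran from 7.32 over 7.89 to 8.59 before and from 7.55 over 8.23 to 8.51 after. It rose by 0.23 ± 0.07 (limma adjusted p = 0.0389) and was higher in 16 of 21 tumours, with tumour 1 at 1.02 and tumour 6 at -0.21 as the extremes. RBBP8 was no longer called without tumour 1, 3, 4, 8, 9, 10, 11, 12, 16, 20 or 21 (11 of 21 fits), with adjusted p values from 0.0211 to 0.0743 and changes from 0.19 to 0.25. Its other probe set did not move the same way, at -0.12 (limma adjusted p = 0.647), with 15 of 21 tumours lower. MRE11, RAD50 and NBN form the complex that first binds a broken end, and they changed by -0.03 ± 0.09, 0.12 ± 0.05 and 0.01 ± 0.06. TP53BP1, which restrains resection, changed by 0.01 ± 0.04. None of these 4 was called. The other probe sets of RAD50, NBN and TP53BP1 changed by -0.01, 0.04 and -0.14 and were not called either. MRE11, with a low mean level of 3.83 over all arrays, varied most between tumours, from -1.19 in tumour 7 to 1.08 in tumour 1.

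None of the 7 end joining genes was called by limma, in either direction, and 0 passed an unadjusted p of 0.05. Their median change was 0.01 and their range -0.16 to 0.06. XRCC5 and XRCC6, the subunits of the Ku ring that caps broken ends, changed by 0.01 ± 0.06 and 0.02 ± 0.05, and the ligase LIG4 by 0.01 ± 0.05. Its partners XRCC4 and NHEJ1 changed by -0.06 ± 0.07 and -0.08 ± 0.06, and the nuclease DCLRE1C by 0.06 ± 0.08. PRKDC, the kinase that Ku recruits, had the lowest mean change, -0.16 ± 0.10, and ran from -1.001 in tumour 1 to 0.76 in tumour 13.

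The 7 genes called lower had a mean change below 0 in both batches, between -0.43 and -0.22 in the 9 spiked tumours and between -0.45 and -0.26 in the 12 unspiked tumours. FANCC, for example, changed by -0.43 and -0.45, and RBBP8 by 0.28 and 0.19. Tested within a batch, 4 genes were called lower in the spiked tumours (CHEK1, RAD54L, FANCI and XRCC2) and 0 higher, beside 1.81% of all genes called lower and 1.49% higher there. In the unspiked tumours 0 repair genes were called lower or higher by limma, beside 0% of all genes, although 8 passed downwards and 1 upwards at an unadjusted p of 0.05. No repair gene was called for a difference between batches by limma, beside 0.00662% of all genes. At an unadjusted p of 0.05, 2 passed, ATR and XRCC2, beside 3.39% of all genes higher and 2.89% lower in the spiked tumours. The contrast of 3′ against 5′ control probe sets, a measure of RNA integrity, changed by 0.21 ± 0.25 (SD) in the spiked and -0.05 ± 0.24 in the unspiked tumours. At a contrast change of 0, with the contrast as a covariate, 5 genes were called lower and 0 higher (2 upwards at an unadjusted p of 0.05), beside 2.55% and 3.25% of all genes. Of 27 other probe sets for these genes, 18 had a change of the same sign as the one used, and 4 were called, all lower, beside 5.96% of all probe sets called in either direction.

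Tumours differed in how many repair genes were lower after treatment. More of the 33 genes were lower than higher in 16 of 21 tumours. Tumour 14 had 28 lower, beside 52.7% of all genes lower in that tumour. Tumours 9, 12 and 19 had 27, beside 47.5%, 48.6% and 44.8% of all genes. At the other end, tumour 15 had 9 lower and a median change of 0.31, with 44.7% of all genes lower. Tumour 8 had 12 lower and a median of 0.14, with 52.2% of all genes lower. Tumour 15, which before treatment had the highest marker means for keratinocytes, neutrophils, T cells, B cells, macrophages and skeletal muscle, also changed in its markers. The T cell mean changed by -1.03, B cells by -0.79, neutrophils by -0.67, skeletal muscle by -0.30, macrophages by -0.29 and keratinocytes by -0.06, while stroma changed by 0.49 and endothelium by 0.41. In it the mitosis list was higher after treatment by 0.57, and the part of these shifts in its repair gene values was not tested. The mitosis list was also higher in tumour 13, by 0.71, where 18 of 33 repair genes were lower, beside 54.3% of all genes. Without tumours 13 and 15, 9 genes were called lower and 0 higher by limma (1 upwards at an unadjusted p of 0.05), beside 5.27% and 5% of all genes. The number called lower ran from 4 to 9 over the fits that left out 1 tumour, and was 4 without tumour 2, 3, 7, 10, 11 or 20.

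**Figure D4:**
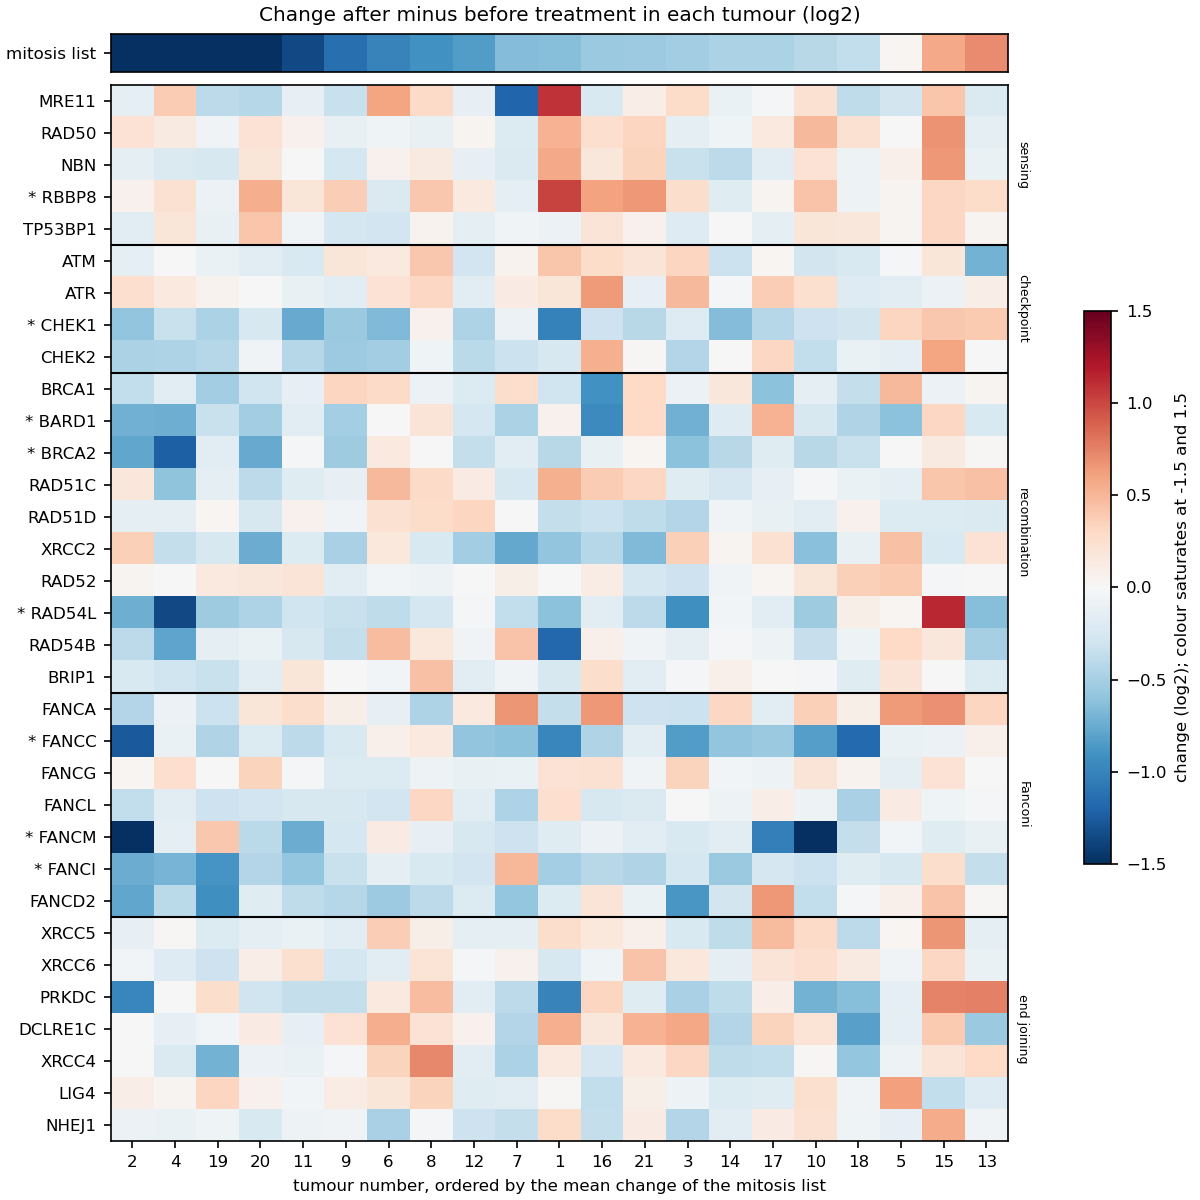
Change after minus before treatment (log2) of the 33 repair genes in each tumour, with tumours ordered by the mean change of the mitosis list (top strip), roles divided by lines and called genes starred. Blue prevails among the Fanconi and recombination genes in most tumours, while tumour 15 near the right edge is mostly red, with 9 of 33 genes lower.

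Since many repair genes are made mainly by dividing cells, the change of each gene was set against the change of the mitosis list over the 21 tumours. No repair gene was called for this slope by limma, beside 0.648% of all genes called for a positive and 0.0463% for a negative slope. Without adjustment 8 passed 0.05, all with a positive slope, beside 6.52% of all genes with a positive and 5.82% with a negative one, and 27 of the 33 slopes were above 0. CHEK1 had 0.34 ± 0.10 log2 units per log2 unit of the mitosis list (limma adjusted p = 0.159), FANCD2 0.35 ± 0.10, BRCA2 0.29 ± 0.09, RAD54L 0.38 ± 0.13 and FANCI 0.26 ± 0.09, with CHEK2, FANCA and RAD51C as the other 3. FANCC and FANCM, which fell most, had slopes of 0.10 ± 0.13 and 0.11 ± 0.16 (adjusted p = 0.804 and 0.813). The second FANCD2 probe set was called, with a slope of 0.56 (limma adjusted p = 0.001). Leaving out tumour 13 called RAD54L, with a slope of 0.56 (adjusted p = 0.0476).

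In the same fit, which gives each gene's change at a mitosis change of 0, no repair gene was called by limma in either direction, beside 0.106% of all genes lower and 0.516% higher, and 2 passed each way at an unadjusted p of 0.05. FANCC was then at -0.37 (limma adjusted p = 0.145), FANCM at -0.27 and RBBP8 at 0.25. CHEK1, BRCA2 and RAD54L were at -0.07, -0.08 and -0.05, and FANCI and BARD1 at -0.15 and -0.14. Only 3 tumours had a mitosis change above 0, so these values lie near the edge of the data.

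**Figure D5:**
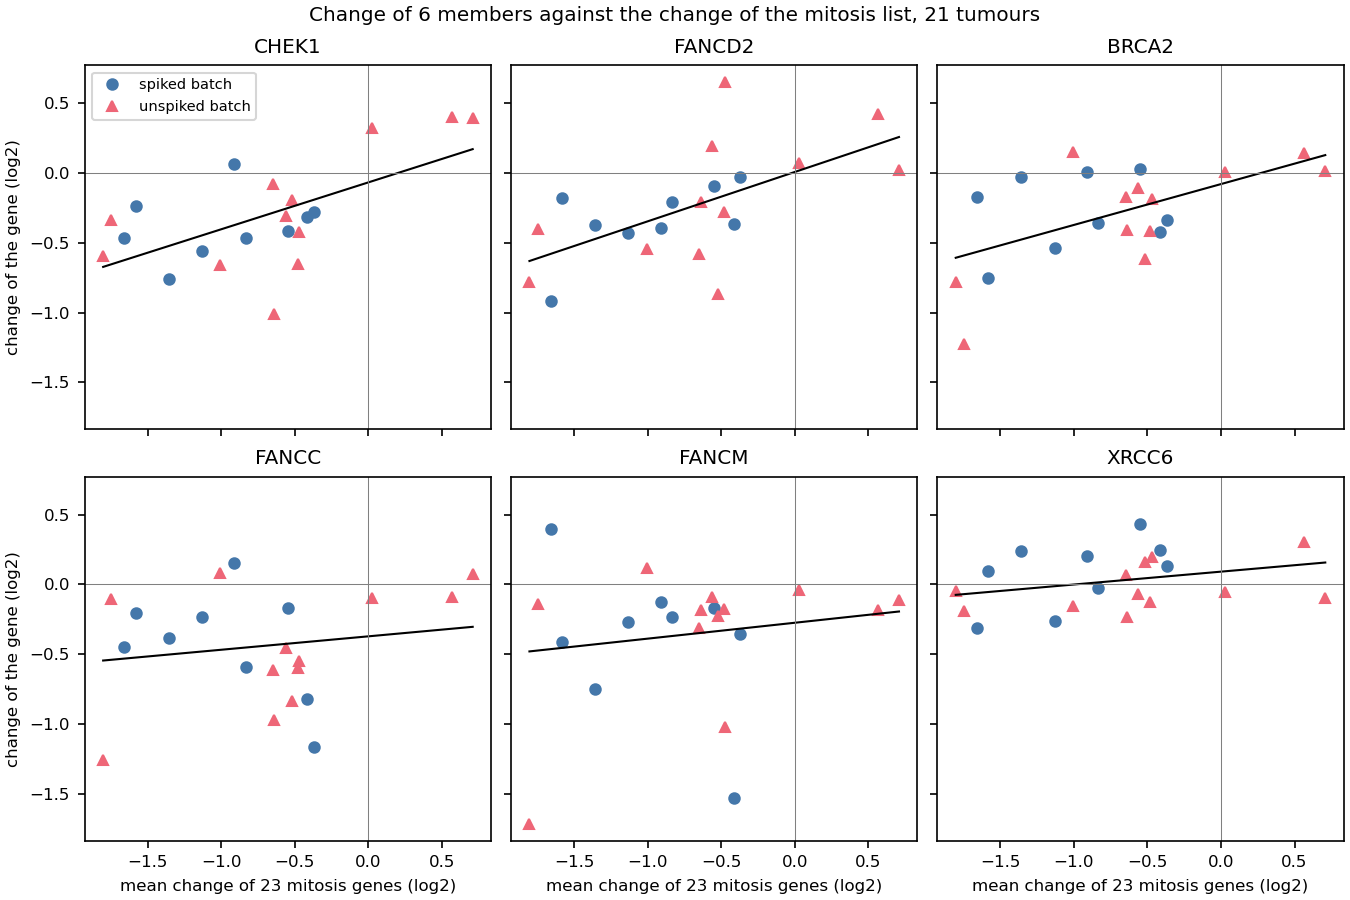
Change (log2) of 6 repair genes against the mean change of 23 mitosis genes (log2) in 21 tumours, with circles for spiked and triangles for unspiked tumours and a least-squares line. The line climbs for CHEK1, FANCD2 and BRCA2, while FANCC lies below 0 along most of the axis with a slope of 0.10. XRCC6 of the Ku ring has a slope of 0.09 ± 0.07 and changes from -0.31 to 0.43.

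Before treatment the level of the mitosis list ran from 5.05 to 7.59. Across the 21 untreated tumours BRCA1 and RAD54L were called for a positive slope on it, 0.37 ± 0.08 (limma adjusted p = 0.0241) and 0.40 ± 0.09 (adjusted p = 0.026), beside 0.959% of all genes with a positive and 0.0662% with a negative one. The call of BRCA1 was lost without tumour 3 or 17 and that of RAD54L without tumour 11, 14 or 17, so neither remained without tumour 17, which had the highest mitosis level. Without tumours 17 and 19, the farthest from the median, the slope of BRCA1 was 0.25 and no gene was called. Slopes of CHEK2 (0.53 ± 0.15) and FANCD2 (0.34 ± 0.09) were not called (limma adjusted p = 0.13 and 0.0877). The second CHEK2 probe set was called for this slope, at 0.55 (limma adjusted p = 0.0395), and the second FANCD2 probe set was not, at 0.37 (adjusted p = 0.282). The end joining genes had a median slope of -0.06, beside 0.15 for sensing and resection, 0.24 for the checkpoint, 0.22 for recombination and 0.22 for Fanconi genes. For the slope on the mitosis change the medians of these groups were 0.12, 0.06, 0.13, 0.12 and 0.11, in the same order.

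The changes of the repair genes were also set against the change of CDKN1A, a relation chosen after the data had been seen. None was called by limma, beside 0.0397% of all genes. At an unadjusted p of 0.05, 2 passed, RBBP8 with a slope of 0.17 ± 0.07 (p = 0.0153) and XRCC2 with -0.20 ± 0.08 (p = 0.0212), with adjusted p values of 0.608 and 0.614, beside 3.26% of all genes with a positive and 4.78% with a negative slope.

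Of 65 other measured genes of the same pathways, 4 were called lower and 2 higher, beside 3.13% and 4.02% of all genes. Their median change was -0.03. UBE2T, the ubiquitin-conjugating enzyme that works with FANCL, fell by 0.78 ± 0.16 (limma adjusted p = 0.0055) and was lower in 16 of 21 tumours. RAD51AP1, a recombination factor, fell by 0.38 ± 0.10, CLSPN, the adaptor through which ATR activates CHEK1, by 0.19 ± 0.05, and RMI2, a subunit of the complex that dissolves recombination intermediates, by 0.15 ± 0.05. SMC5, a subunit of a cohesin-like repair complex, rose by 0.57 ± 0.13 (limma adjusted p = 0.0127) and was higher in 14 tumours, and APTX, an end-cleaning enzyme of strand break repair, rose by 0.14 ± 0.04. CLSPN and CHEK1, and UBE2T and its substrate FANCI, were called in the same direction, but these pairs were picked among the called genes. FANCL, with which UBE2T works, and FANCD2, the partner of FANCI, were not called from the probe sets used (limma adjusted p = 0.0977 and 0.0695). UBE2T and RAD51AP1 were called for a positive slope on the mitosis change, 0.84 and 0.53 (limma adjusted p = 0.0196 and 0.0101), as was the Holliday junction nuclease GEN1, at 0.44 (adjusted p = 0.0265). Among 24 replication genes 9 were called lower, and among 20 p53 targets 9 were called higher and 0 lower. PCNA, the sliding clamp of replication and repair, rose by 0.76 ± 0.15 (limma adjusted p = 0.0045) and was higher in 16 of 21 tumours.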

How the data were processed

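RNA from sarcoma tissue kept in RNAlater was extracted on Qiagen columns, biotin-labelled and hybridised to canine arrays, per the labels' protocols. The authors deposited log2 values, made with RMA in Affymetrix Expression Console per the submitters' processing notes, with no version given there. Scanner intensities are not analysed here. Precision is set by the number of tumours and the spread among them. The code that starts each title names the tumour and gave the pairs, and tumour numbers are names only. Whether any dog gave several tumours is not in the labels, and the p-values rest on the spread among the 21 tumours alone.

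The 111 control probe sets were left out, which leaves 42924 of 43035. All of them were fitted with limma 3.58.1 in R 4.3.3 (tumour as a block, eBayes, two-sided, Benjamini-Hochberg at 0.05). Slopes were fitted with limma on the changes per tumour or on the levels before treatment. The fit was tested on simulated data with independent normal noise for each probe set. Beside a limit on false calls, recovery was required there only at the largest simulated size, above the mean changes of the repair genes. Of the probe sets used, 13 end in _s_at and can bind related transcripts, and 9 lie below the median level of all probe sets. Python 3.11.15, pandas 2.3.3 and Matplotlib 3.10.9 were used for summaries and plots.

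The repair genes, the other gene lists, the batches and the tests were chosen with earlier results of these data known. All measured repair genes are named, besides CDKN1A, MDM2, TOP2A, PCNA and each called gene among the other pathway genes. GEN1 was named after its values were seen. Full values are given for called genes and the 3 uncalled ones with the largest change. Alternatives covered the block, variance moderation, a filter on low levels, array weights, scaling, the 3′/5′ contrast, the choice of probe set, the batches and each tumour left out.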

Additional observations from a re-analysis of the deposited data

How the results depend on the processing

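Against 7 genes called lower and 1 higher by limma, the fit without the tumour pairing (no replicate block) called 0 lower and 0 higher. The filter on low levels called 5 lower of 24 genes left, array weights 9, a renewed quantile normalisation and a centring of each array 6, the 3′/5′ covariate 5, the mean over a gene's probe sets 9, the spiked tumours alone 4, the unspiked alone 0 and the mitosis covariate 0. Without tumours 13 and 15 it was 9. The number called higher became 0 with the 3′/5′ covariate, the mean over probe sets, either batch alone, without tumours 13 and 15 and with the mitosis covariate. Leaving out 1 tumour gave 4 to 9 lower and 0 to 1 higher. The share called over all genes is not given here for several of these fits. They are those without the block, with the filter, array weights, renewed normalisation, centring, probe set means or 1 tumour left out. Whether their counts followed a shift over all genes was not tested. Batch and mitosis fits use fewer tumours or an added term. The filter removed CHEK1, FANCM and FANCI, which were called lower, and BRCA1, which was called for a slope before treatment. The mean over probe sets takes in the other RBBP8 probe set, which changed by -0.12. The cause of the remaining shifts was not tested for any of the fits. Slopes on the mitosis change gave 1 positive call with the 3′/5′ covariate, FANCD2, and 0 to 1 with a tumour left out. Slopes before treatment, 2 positive calls, gave 0 in either batch alone and without tumours 17 and 19, 1 after renewed quantile normalisation, 1 with the filter, and 0 to 3 with a tumour left out.

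No called gene changed direction under any alternative run. Among the uncalled genes, these changed sign. With array weights NBN was at -0.035, RAD51C at -0.029 and XRCC5 at -0.030, and with the 3′/5′ covariate NBN was at -0.010 and TP53BP1 at -0.0030. With the mean over probe sets TP53BP1 was at -0.064 and ATM at 0.039. In the spiked tumours ATR was at -0.019, RAD51C at -0.028 and XRCC5 at -0.074. In the unspiked tumours MRE11 was at 0.048, NBN at -0.0030, TP53BP1 at -0.010, ATM at 0.019, XRCC6 at -0.021 and LIG4 at -0.051. Without tumours 13 and 15 NBN was at -0.023, TP53BP1 at -0.0090, ATM at 0.014, RAD51C at -0.013 and XRCC5 at -0.012. With the mitosis covariate MRE11 was at 0.0068, CHEK2 at 0.042, PRKDC at 0.043, BRIP1 at 0.0065, FANCD2 at 0.0068, XRCC4 at 0.025, LIG4 at -0.069 and NHEJ1 at 0.0092. With a tumour left out MRE11 ran from -0.083 to 0.030, NBN from -0.026 to 0.026, TP53BP1 from -0.011 to 0.024, ATM from -0.034 to 0.022, XRCC5 from -0.019 to 0.034 and LIG4 from -0.017 to 0.032.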
